A study of Mus musculus with 4 samples.

Results

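Immediate early genes of neuronal activity were examined in granule-cell-enriched (GCE) tissue of the cerebellum of WT and *Kdm3b*+/- mice. They were chosen by name and found by their NCBI mouse gene numbers, and they were *Fos*, *Fosb*, *Junb*, *Egr1*, *Egr2*, *Egr3*, *Egr4*, *Nr4a1*, *Arc* and *Npas4*. These were 10 of the 24532 gene identifiers in the tables, each with a single entry in every library.

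The tissue came from 4 mice, 2 WT and 2 *Kdm3b*+/-, and each mouse gave 1 library. Per the study's methods, the mice were adult males, and the *Kdm3b*+/- mice carried 1 gene-trap allele of *Kdm3b*, which encodes a histone H3 lysine 9 demethylase, while the WT mice were littermates without it. The trap allele is present in all tissues, and the GCE tissue was dissected by hand from slices of the vermis, so that it can hold cells of other layers. Time of day, handling and any training of these mice before the tissue was taken are not given in the sources used here.

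Immediate early genes are transcribed within minutes of synaptic activity, when calcium entry activates kinases that phosphorylate CREB and the ternary complex factors already bound at their promoters. No protein has to be made first, the mRNAs are short-lived, and their level at one moment therefore reflects recent activity. In the cerebellum they are known to be induced in granule cells when the mossy fibers that innervate them are active. Most of the 10 encode transcription factors that act on later genes, whereas *Arc* encodes a synaptic protein.

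The deposited levels are TPM, the abundance of transcripts corrected for gene length, which sums to 1000000 in each library, so that levels can be compared between genes. The libraries held between 4.92 and 6.69 gigabases of aligned sequence. *Kdm3b* itself had 9.10 and 11.0 TPM in WT mice 1 and 2 and 8.30 and 7.90 TPM in *Kdm3b*+/- mice 1 and 2. The *Kdm3b* groups did not overlap, with a log2 fold change of -0.27 ± 0.17 (SE) and an adjusted p of 0.424 in limma. The genotype label was thus met in direction but not by the test. Of all genes tested below, 32.0% were likewise lower without overlap, so this pattern alone is a weak check of the label. The granule cell marker *Gabra6* had 984 to 1200 TPM over the 4 libraries, and the summed level of 9 granule cell markers was 3506 to 4233 TPM. The defining Purkinje cell markers were present as well, with summed levels of 675 to 1569 TPM over 8 genes, and those of oligodendrocytes reached 14116 to 16682 TPM over 5 genes.

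The 10 genes fell into 6 with a level that could be compared and 4 near the floor. In WT mice the order by mean TPM was *Egr1*, then *Fos*, *Arc* and *Junb*, then *Egr4* and *Nr4a1*, and far below them *Npas4*, *Egr2*, *Egr3* and *Fosb*. The values of the 2 WT mice for *Fos*, *Arc* and *Junb* overlapped, so these neighbours did not differ beyond the spread between mice, and the same held for *Egr4* and *Nr4a1*. The mean WT level of *Egr1* lay at the 91.1 percentile of all gene identifiers, those of *Fos*, *Arc* and *Junb* between 76.3 and 76.8, those of *Egr4* and *Nr4a1* at 67.8 and 65.4, and those of the other 4 between 27.7 and 36.7. A test was made only for genes with a mean of at least 1 TPM over the libraries, which 13652 genes and 6 of the 10 had.

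**Figure D1:**
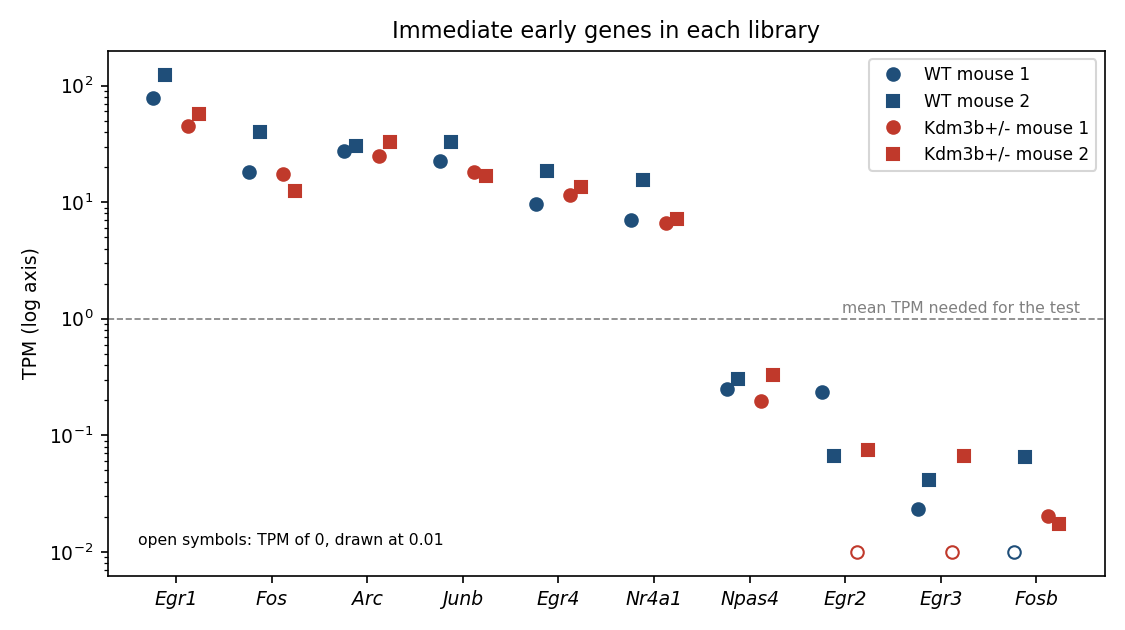
Level of each of the 10 genes in each library, as TPM on a log axis, with 1 point per mouse, WT mice in blue and *Kdm3b*+/- mice in red. Open symbols are genes listed at 0 in a library, drawn at 0.01, and the dashed line is the mean of 1 TPM needed for the test. *Egr1* is highest at 45.0 to 124 TPM, 6 genes lie above 6 TPM in every library, and 4 lie below 0.4 TPM in every library.

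The stretch of DNA before the start site is shown for the 4 tested genes with an entry in the RefSeq promoter table, since it is where CREB and the factors that cooperate with it are known to act on these genes. Each sequence runs from position -250 to position -1, counted from the RefSeq start site in build GRCm38.p6, and reads 5′ to 3′ along the strand of the gene. Capitals mark the letters of the core of the cyclic AMP response element (TGACG, or CGTCA on the other strand), of a TATA box (TATAAA) and of a site read by the EGR proteins (GCGTGGGCG or GCGGGGGCG, or their reverse complements). The *Fos* stretch is chr12:85473640-85473889 on the + strand, that of *Junb* chr8:84978749-84978998 on the - strand, that of *Nr4a1* chr15:101266596-101266845 on the + strand and that of *Egr4* chr6:85513590-85513839 on the - strand.
Fos: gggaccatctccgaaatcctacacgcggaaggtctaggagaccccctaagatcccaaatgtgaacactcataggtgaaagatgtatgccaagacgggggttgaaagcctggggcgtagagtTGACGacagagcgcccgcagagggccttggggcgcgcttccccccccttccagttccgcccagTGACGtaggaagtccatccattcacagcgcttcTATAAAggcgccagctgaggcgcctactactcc
Junb: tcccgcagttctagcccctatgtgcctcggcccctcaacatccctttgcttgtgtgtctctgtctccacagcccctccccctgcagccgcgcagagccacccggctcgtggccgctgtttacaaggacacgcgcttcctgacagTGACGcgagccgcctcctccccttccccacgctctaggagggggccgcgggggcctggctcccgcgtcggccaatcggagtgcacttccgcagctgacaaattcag
Nr4a1: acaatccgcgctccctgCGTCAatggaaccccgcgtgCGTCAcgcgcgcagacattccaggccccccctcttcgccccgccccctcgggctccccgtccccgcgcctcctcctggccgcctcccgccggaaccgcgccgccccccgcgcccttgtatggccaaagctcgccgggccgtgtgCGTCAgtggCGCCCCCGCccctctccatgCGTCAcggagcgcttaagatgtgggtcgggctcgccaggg
Egr4: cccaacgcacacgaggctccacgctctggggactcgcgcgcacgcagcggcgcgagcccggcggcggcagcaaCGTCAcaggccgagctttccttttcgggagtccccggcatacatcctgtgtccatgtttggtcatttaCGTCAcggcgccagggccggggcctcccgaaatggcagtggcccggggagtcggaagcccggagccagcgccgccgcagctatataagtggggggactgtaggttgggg

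*Fos* has the CRE core at -129 to -125 and at -66 to -62 and a TATA box at -33 to -28. *Junb* has 1 CRE core, at -106 to -102, and its letters TATAAA begin at position 1 of the RefSeq start, while the GENCODE transcript starts 30 bases further downstream. *Nr4a1* has 4 CRE cores, the nearest at -40 to -36, and an EGR site at -60 to -52. *Egr4* has CRE cores at -177 to -173 and at -109 to -105. These matches describe the letters of the sequence and were not tested as binding sites.

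*Fosb*, *Npas4* and *Egr2* also have a RefSeq window, so that 7 of the 10 genes could be searched, in windows of 300 bases from 250 before to 50 after the start, on both strands. The CRE core TGACG occurred in all 7 of them. It occurred in 23.0% of the 27025 genes in the promoter table and in 35.4% of the 10715 tested genes with a window. A gene with several windows was counted where any of them held the letters. *Egr2* had several, and those with start sites at 67535499 and 67537566 held no CRE core. The full palindrome TGACGTCA, which contains the core, occurred in none of the 7, in 3.62% of tested genes with a window and in 2.03% of all genes in the table. TATAAA occurred in 2 of the 7, against 8.73% of tested genes with a window and 15.7% of all genes in the table. Only these exact letters were counted, so other spellings, such as TATATAA in the *Egr4* stretch, were left out. An EGR site occurred in 2, *Nr4a1* and *Fosb*, against 7.76% and 3.93%. A CArG box, the site of serum response factor, occurred in 1, *Egr2* at -72 to -63, against 1.62% and 1.81%, and the AP-1 site TGAGTCA in none, against 4.27% and 5.95%. Letters more than 250 bases before the start were not searched, so a gene without a match may have one further upstream. *Egr1*, *Egr3* and *Arc* had no window and were not searched. Taking the window of each gene with the most CG dinucleotides, the 7 genes had between 20 and 35 of them, and the median over tested genes was 22.0.

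**Figure D2:**
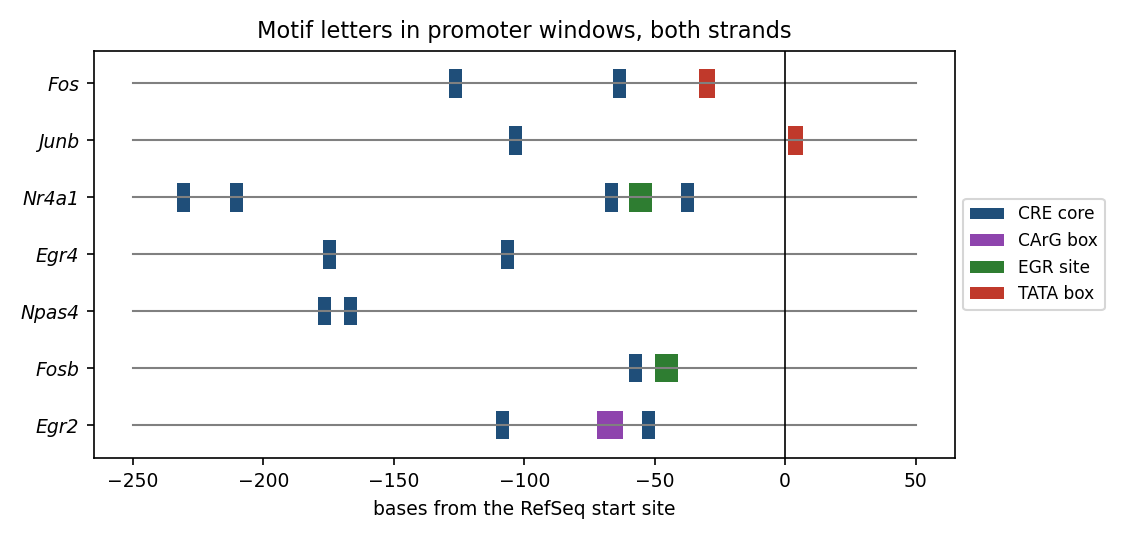
Positions of the motif letters relative to the RefSeq start site, in bases, with 1 line per gene for the window of 300 bases and a colored block per match on either strand (for *Egr2*, the window at the deposited start). Each of the 7 genes has at least 1 CRE core, and the letters TATAAA are found in *Fos* and, from position 1, in *Junb*. Within these windows *Egr2* has the only CArG box.

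None of the 6 tested genes was a DEX gene, but all 6 had a lower mean log2 level in *Kdm3b*+/- mice, although the sign turned for *Arc* with FPKM, median-ratio scaling and quantile normalization and for *Egr4* with quantile normalization. *Egr1*, *Fos* and *Junb* were lower in both *Kdm3b*+/- mice than in either WT mouse, and *Nr4a1*, *Egr4* and *Arc* overlapped between genotypes. A gene was counted as DEX where the fold change exceeded 1.2 and the adjusted p was below 0.05 in limma. The study, which used DESeq2 on the same mice, listed *Egr1* among its own DEX genes, so the calls given here are those of limma alone. Of all tested genes, 0.461% were DEX in either direction and 0.344% were DEX with a lower level in *Kdm3b*+/- mice. Groups without overlap and a lower level in *Kdm3b*+/- mice were found in 32.0% of tested genes, and with a higher level in 19.2%, and 3 of 6 is to be read against that background. The unadjusted p was under 0.05 with a lower level for 3 of the 6, against 11.5% of tested genes, and with a higher level for none, against 5.47%. The median log2 fold change was -0.58 over the 6 genes and -0.07 over all tested genes. With median-ratio scaling these medians were -0.51 and -0.0045. Because the median over all tested genes was negative, lower means were more common among them than higher ones. Counts of lower means, here and in the lists below, are to be read against that, and the exact share was not counted. In bulk tissue, fewer cells of a type and less RNA per cell cannot be told apart.

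**Figure D3:**
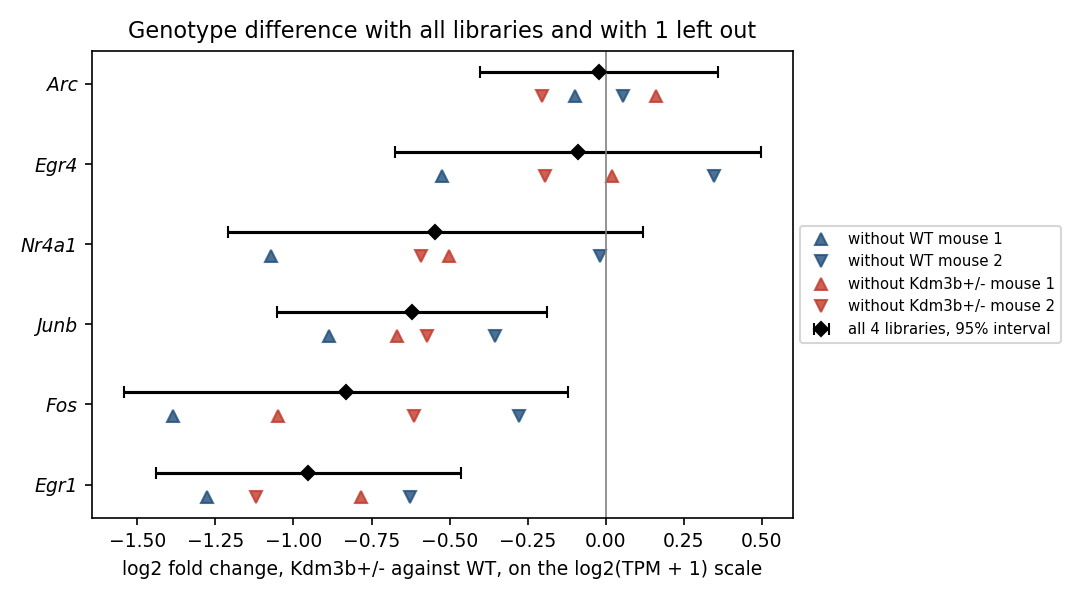
Log2 fold change of the 6 tested genes, *Kdm3b*+/- over WT, on the log2(TPM + 1) scale, with all 4 libraries (black diamonds, bars for the 95% confidence interval of limma) and with each library left out (triangles). With all libraries the estimates run from -0.95 for *Egr1* to -0.02 for *Arc*, and the intervals of *Egr1*, *Fos* and *Junb* do not reach 0 while no adjusted p-value is under 0.05. Without WT mouse 2 every estimate moves to the right.

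The AP-1 transcription factors include dimers of a FOS and a JUN protein. *Fos* (chromosome 12, 85473901 to 85477270, + strand) had 18.0 TPM in WT mouse 1, 40.1 TPM in WT mouse 2, 17.3 TPM in *Kdm3b*+/- mouse 1 and 12.5 TPM in *Kdm3b*+/- mouse 2. WT mouse 2 stood far above the other 3, and the gap between WT mouse 1 and *Kdm3b*+/- mouse 1 was so small that these 2 changed order with median-ratio scaling and with quantile normalization. The means were 29.1 ± 15.6 TPM (SD, n = 2) in WT mice and 14.9 ± 3.38 TPM (SD, n = 2) in *Kdm3b*+/- mice, which is 51.3% of the WT level. The log2 fold change of *Fos* was -0.83 ± 0.32 (SE), with a 95% confidence interval from -1.54 to -0.12 and an adjusted p of 0.246.

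*Junb* (chromosome 8, 84976909 to 84978748, - strand) encodes a JUN partner with a weaker activating function than c-Jun. It had 22.5 and 33.0 TPM in WT mice 1 and 2 and 18.0 and 16.8 TPM in *Kdm3b*+/- mice 1 and 2. The *Kdm3b*+/- mice lay close together below both WT mice, and again WT mouse 2 was the highest. The means were 27.7 ± 7.39 and 17.4 ± 0.847 TPM (SD, n = 2 each). The log2 fold change was -0.62 ± 0.19 (SE), with a 95% confidence interval from -1.05 to -0.19 and an adjusted p of 0.187. *Fosb* (chromosome 7, 19302696 to 19310045, - strand), which encodes a FOS family member whose truncated product is long-lived, was listed at 0 in WT mouse 1 and had 0.0645, 0.0202 and 0.0175 TPM in WT mouse 2 and *Kdm3b*+/- mice 1 and 2. At a mean read depth of at most 0.159 per base, no difference in *Fosb* could be detected.

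The EGR proteins are zinc finger transcription factors that bind GC-rich sites. *Egr1* (chromosome 18, 34861207 to 34864956, + strand), which lies 21.8 kb past the end of *Kdm3b*, had 78.8 and 124 TPM in WT mice 1 and 2 and 45.0 and 57.1 TPM in *Kdm3b*+/- mice 1 and 2. Of the 6 tested genes it had the lowest adjusted p, and every *Kdm3b*+/- value was below every WT value. The means were 102 ± 32.2 and 51.0 ± 8.51 TPM (SD, n = 2 each), so that *Kdm3b*+/- mice had 50.2% of the WT level. The log2 fold change was -0.95 ± 0.22 (SE), with a 95% confidence interval from -1.44 to -0.47 and an adjusted p of 0.114.

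Both *Kdm3b*+/- mice carried the gene-trap allele next to *Egr1*, so a difference that comes from the trapped stretch of chromosome 18 and one that comes from less KDM3B protein cannot be told apart.

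*Egr4* (chromosome 6, 85511122 to 85513542, - strand) had 9.57 and 18.4 TPM in WT mice 1 and 2 and 11.5 and 13.5 TPM in *Kdm3b*+/- mice 1 and 2. Both *Kdm3b*+/- values lay between those of the WT mice. The means were 14.0 ± 6.21 and 12.5 ± 1.42 TPM (SD, n = 2 each), and the log2 fold change was -0.09 ± 0.26 (SE), with a 95% confidence interval from -0.67 to 0.50 and an adjusted p of 0.889. The interval leaves room for a difference in either direction.

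*Egr2* (chromosome 10, 67537869 to 67542188, + strand) had 0.236, 0.0670 and 0.0744 TPM in WT mice 1 and 2 and *Kdm3b*+/- mouse 2, and was listed at 0 in *Kdm3b*+/- mouse 1. *Egr3* (chromosome 14, 70077445 to 70082613, + strand) had 0.0233, 0.0416 and 0.0665 TPM in the same 3 mice and was also listed at 0 in *Kdm3b*+/- mouse 1. Their mean read depth was at most 0.523 and 0.192 per base, against up to 307 for *Egr1*, so no comparison was made.

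*Nr4a1* (chromosome 15, 101266846 to 101274794, + strand) encodes an orphan nuclear receptor that needs no known hormone. It had 7.00 and 15.6 TPM in WT mice 1 and 2 and 6.66 and 7.15 TPM in *Kdm3b*+/- mice 1 and 2. WT mouse 2 was more than 2 times as high as each of the others, and the remaining 3 values lay together. The means were 11.3 ± 6.09 and 6.90 ± 0.348 TPM (SD, n = 2 each), and the log2 fold change was -0.55 ± 0.29 (SE), with a 95% confidence interval from -1.21 to 0.12 and an adjusted p of 0.371.

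*Npas4* (chromosome 19, 4984354 to 4989971, - strand) encodes a basic helix-loop-helix factor that is induced by calcium in neurons and promotes inhibitory synapses. It had 0.250 and 0.302 TPM in WT mice and 0.197 and 0.331 TPM in *Kdm3b*+/- mice, with no separation of the genotypes, and it was not tested. Its mean read depth was between 0.520 and 1.01 per base.

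*Arc* (chromosome 15, 74669081 to 74672570, - strand) encodes a cytoskeletal protein that acts at dendritic spines in the removal of AMPA receptors. It had 27.4 and 30.6 TPM in WT mice and 25.0 and 32.5 TPM in *Kdm3b*+/- mice. The genotypes overlapped fully in range, since the highest and the lowest values were both *Kdm3b*+/-. The means were 29.0 ± 2.25 and 28.8 ± 5.29 TPM (SD, n = 2 each), the log2 fold change was -0.02 ± 0.17 (SE), and the 95% confidence interval ran from -0.40 to 0.36 with an adjusted p of 0.960. The lower end of this interval was above the estimates for *Egr1*, *Fos*, *Junb* and *Nr4a1*, but the difference between genes was not tested.

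The summed level of the 10 genes was 164 and 263 TPM in WT mice and 124 and 140.0 TPM in *Kdm3b*+/- mice. *Kdm3b*+/- mice had 61.9% of the WT mean, at 132 ± 11.5 against 213 ± 69.7 TPM (SD, n = 2 each). The exact permutation test gave a two-sided p of 0.333, which is the smallest it can give for 2 mice against 2. *Egr1* made up 48.1% and 47.4% of the sum in WT mice and 36.4% and 40.7% in *Kdm3b*+/- mice. Without *Egr1* the sum was 85.1 and 138 TPM in WT mice and 78.7 and 83.0 TPM in *Kdm3b*+/- mice, so that the lowest WT value was just above the highest *Kdm3b*+/- value.

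For 5 of the 6 tested genes the WT mice lay further from each other than the *Kdm3b*+/- mice did, and for *Arc* the *Kdm3b*+/- mice did. The log2 difference of WT mouse 2 over WT mouse 1 was 1.11 for *Fos*, 1.05 for *Nr4a1*, 0.87 for *Egr4*, 0.65 for *Egr1* and 0.53 for *Junb*, and 0.15 for *Arc*. All 6 were higher in WT mouse 2 than in WT mouse 1, as were 58.6% of all tested genes, and the size of the difference lay above the 90th percentile of all tested genes for 5 of 6. Its median size was 0.76 for the 6 genes and 0.19 for all tested genes. Between the *Kdm3b*+/- mice the median size was 0.28 for the 6 genes and 0.14 for all tested genes, and *Fos* alone was above the 90th percentile, lower in mouse 2 by a log2 difference of -0.44. WT mouse 2 was the highest of the 4 libraries for 5 of the 6 genes, *Arc* being the exception.

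**Figure D4:**
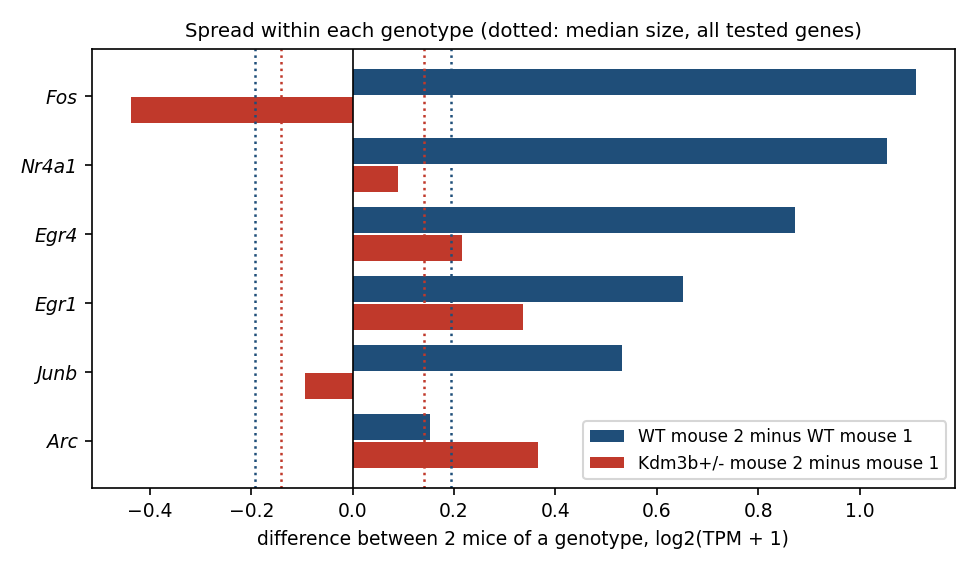
Log2 difference between the mice of a genotype, mouse 2 over mouse 1, for the 6 tested genes, WT mice in blue and *Kdm3b*+/- mice in red, with dotted lines for the median size over all tested genes. The WT differences reach 1.11 for *Fos* and 1.05 for *Nr4a1*, and those of the *Kdm3b*+/- mice run from -0.44 to 0.36.

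The genotype difference rested on WT mouse 2 in size. Without it the log2 fold change was -0.28 for *Fos*, -0.35 for *Junb*, -0.63 for *Egr1*, -0.02 for *Nr4a1*, 0.35 for *Egr4* and 0.05 for *Arc*, and the adjusted p was 0.652 for *Fos*, 0.439 for *Junb* and 0.264 for *Egr1*. Without WT mouse 1 it was -1.39 for *Fos*, -0.89 for *Junb*, -1.28 for *Egr1* and -1.07 for *Nr4a1*. The *Egr1* estimate was negative with each of the 4 libraries left out, and without *Kdm3b*+/- mouse 2 its log2 fold change of -1.12 had an adjusted p of 0.0134, so that *Egr1* was then a DEX gene. In that fit 1 *Kdm3b*+/- library is assumed to vary like the WT mice, and the number of DEX genes over all tested genes was 188 in place of 63.

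Levels of other cell types differed between the WT mice too. The summed Purkinje markers were 1569 TPM in WT mouse 1 and 675 TPM in WT mouse 2, and 878 and 707 TPM in *Kdm3b*+/- mice, which is the opposite order to the immediate early genes in WT mice. The mean was lower in *Kdm3b*+/- mice for 8 of 8 Purkinje markers, with a median log2 fold change of -0.50, none of them was DEX, and 2 had an unadjusted p under 0.05. The granule cell sum was 3506 and 4233 TPM in WT mice and 3551 and 3619 TPM in *Kdm3b*+/- mice, with 3 of 9 markers at a lower mean in *Kdm3b*+/- mice, 6 at a higher one and none DEX (1 in each direction at an unadjusted p under 0.05). Astrocyte and Bergmann glia markers summed to 698 and 731 TPM in WT mice and 645 and 717 TPM in *Kdm3b*+/- mice, with 5 of 6 at a lower mean and a median log2 fold change of -0.31. Of the 6, 3 were lower and 1 higher at an unadjusted p under 0.05, beside 11.5% and 5.47% of all tested genes. Without overlap 4 were lower and 1 higher, beside 32.0% and 19.2%. The only one at a higher mean, *Aqp4*, the water channel of astrocytes, was DEX, with 59.2 and 82.3 TPM in WT mice and 149.96 and 152 TPM in *Kdm3b*+/- mice (1.10, adjusted p = 0.0329). Oligodendrocyte markers had 2 of 5 at a lower mean and a median of 0.10, and *Mobp*, which encodes a myelin protein, was DEX with a lower level, with 925 and 893 TPM in WT mice and 471 and 482 TPM in *Kdm3b*+/- mice (-0.93, adjusted p = 0.0133). These 2 genes were named after their values were seen. Fibroblast markers summed to 42.3 and 35.4 TPM in WT mice and 30.1 and 30.0 TPM in *Kdm3b*+/- mice, with 2 of 3 tested at a lower mean and a median of -0.48. Red cell transcripts summed to 1765 and 1142 TPM in WT mice and 1928 and 1353 TPM in *Kdm3b*+/- mice, with 4 of 5 at a higher mean and a median of 0.41. The fifth, *Hbb-bs*, also named after its values were seen, had 506 and 8.08 TPM in WT mice 1 and 2. It had 0.00768 and 0.142 TPM in *Kdm3b*+/- mice (-5.98, adjusted p = 0.116), so the sum of WT mouse 1 rests in part on this gene. Microglial markers, at 79.3 to 99.9 TPM, and endothelial and mural markers, at 248 to 296 TPM, had medians of 0.04 and 0.07. None of these 4 lists held a DEX gene, and an unadjusted p under 0.05 was found in them for 2 fibroblast markers and 1 red cell transcript with a lower level, and for 1 fibroblast marker, 3 red cell transcripts and 1 endothelial or mural marker with a higher level. The part of any of these in the levels of the immediate early genes was not tested.

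Genes that are known to be induced by activity alongside the 10, or to act before or after them, were counted as lists, each written with earlier results of these data known. Of 11 tested transcription factors, such as *Nr4a2* and *Klf2*, 5 had a lower and 6 a higher mean in *Kdm3b*+/- mice, and the median log2 fold change was 0.02. None was DEX, and 2 had an unadjusted p under 0.05, both with a lower level. Of all tested genes 11.5% had such a p with a lower level and 5.47% with a higher one. Without overlap 3 of the 11 were lower and 1 higher, beside 32.0% and 19.2% of all tested genes. *Klf2*, which encodes a zinc finger factor, had 9.35 and 21.4 TPM in WT mice and 9.15 and 7.95 TPM in *Kdm3b*+/- mice, with a log2 fold change of -0.68 and an adjusted p of 0.303. *Csrnp1* (-0.47, adjusted p = 0.256) and *Nfil3* (-0.33, adjusted p = 0.289) were likewise not DEX.

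Of 15 tested feedback regulators, the phosphatases, sprouty proteins and mRNA decay factors that end the response, 11 had a lower mean and 4 a higher one, with a median of -0.10. None was DEX, and 2 had an unadjusted p under 0.05, both with a lower level, beside 11.5% of all tested genes. Without overlap 3 of the 15 were lower and none higher, beside 32.0% and 19.2% of all tested genes. *Dusp1*, which encodes a MAP kinase phosphatase, had 113 and 167 TPM in WT mice and 96.3 and 68.5 TPM in *Kdm3b*+/- mice (log2 fold change -0.75, adjusted p = 0.172). *Zfp36*, whose product promotes decay of mRNAs with AU-rich elements, had 10.6 and 18.6 TPM in WT mice and 8.45 and 6.51 TPM in *Kdm3b*+/- mice (-0.84, adjusted p = 0.175). *Dusp5* overlapped between genotypes (-0.48, adjusted p = 0.353).

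Of 14 tested effector genes, 10 had a lower mean and 4 a higher one, with a median of -0.13, and *Ctgf* was the only DEX gene of the 5 lists. An unadjusted p under 0.05 was found for 3 with a lower and 1 with a higher level, beside 11.5% and 5.47% of all tested genes. *Ctgf*, which encodes a matricellular growth factor, had 7.94 and 10.5 TPM in WT mice and 3.52 and 3.57 TPM in *Kdm3b*+/- mice, a log2 fold change of -1.16 ± 0.19 (SE) with an adjusted p of 0.0381. *Cyr61*, which encodes a related protein, had 5.14 and 14.8 TPM in WT mice and 2.50 and 1.66 TPM in *Kdm3b*+/- mice (-1.69, adjusted p = 0.110). The study listed *Cyr61* among its own DEX genes with a lower level. *Pcsk1*, which encodes a prohormone convertase, had 4.02 and 5.13 TPM in WT mice and 2.38 and 2.19 TPM in *Kdm3b*+/- mice (-0.76, adjusted p = 0.140). For all 3, which were named for their large fold changes, both *Kdm3b*+/- values were below both WT values. Over the whole list this was so for 5 of 14 genes, and 1 was higher without overlap, beside 32.0% and 19.2% of all tested genes. *Ctgf* was not DEX without WT mouse 2, with FPKM, without the filter on low TPM or with eBayes without trend.

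The upstream regulators, a list of genes that act before the 10, had a median of -0.04, with 12 of 19 at a lower mean. An unadjusted p under 0.05 was found for 2 with a lower and 1 with a higher level. The shares of all tested genes at that p were 11.5% and 5.47%. *Elk1*, a ternary complex factor, had 36.4 and 31.3 TPM in WT mice and 19.9 and 26.1 TPM in *Kdm3b*+/- mice (-0.54, adjusted p = 0.192). *Crem*, some of whose products repress CREB targets, had 9.99 and 12.1 TPM in WT mice and 15.7 and 14.3 TPM in *Kdm3b*+/- mice (0.42, adjusted p = 0.257). *Rps6ka5*, a kinase of CREB and histone H3, had 14.8 and 15.0 TPM in WT mice and 10.6 and 11.5 TPM in *Kdm3b*+/- mice (-0.40, adjusted p = 0.246). For each of these 3, again named for their fold changes, the genotypes did not overlap, and *Crem* was the one with the higher level in *Kdm3b*+/- mice. Over the whole list 5 of 19 genes were lower and 4 higher without overlap, beside the same 32.0% and 19.2% of all tested genes. Heat shock genes, which respond to protein damage, had a median of -0.11 over 8 tested genes, with 1 lower and 1 higher at an unadjusted p under 0.05. *Hspa1b* had 10.6 and 13.2 TPM in WT mice and 8.00 and 7.92 TPM in *Kdm3b*+/- mice (-0.52, adjusted p = 0.200), and *Hsp90aa1* had 552 and 497 TPM in WT mice and 672 and 658 TPM in *Kdm3b*+/- mice (0.34, adjusted p = 0.218). No gene of these 2 lists was DEX.

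The difference between the WT mice was also counted in these lists. It lay above the 90th percentile, with a higher level in WT mouse 2, for 4 of 11 transcription factors, 6 of 15 feedback regulators and 6 of 14 effectors, and for none of 19 upstream regulators and 8 heat shock genes. Among cell type lists this was so for 2 of 5 microglial and 1 of 6 astrocyte and Bergmann glia markers. It was also so for 1 of 6 endothelial and mural markers and 1 of 5 red cell transcripts. None of 9 granule cell, 5 oligodendrocyte and 3 fibroblast markers showed it. Of the Purkinje markers 6 of 8 lay above that percentile, none with a higher level in WT mouse 2. A large difference in either direction was thus not particular to genes induced by activity. The share of all tested genes above that percentile with a higher level in WT mouse 2 was not counted. Named after their values were seen, *Nr4a2* had 9.61 TPM in WT mouse 1 and 33.3 TPM in WT mouse 2, and *Nr4a3*, which encodes another receptor of the same family, had 0.466 and 2.54 TPM.

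**Figure D5:**
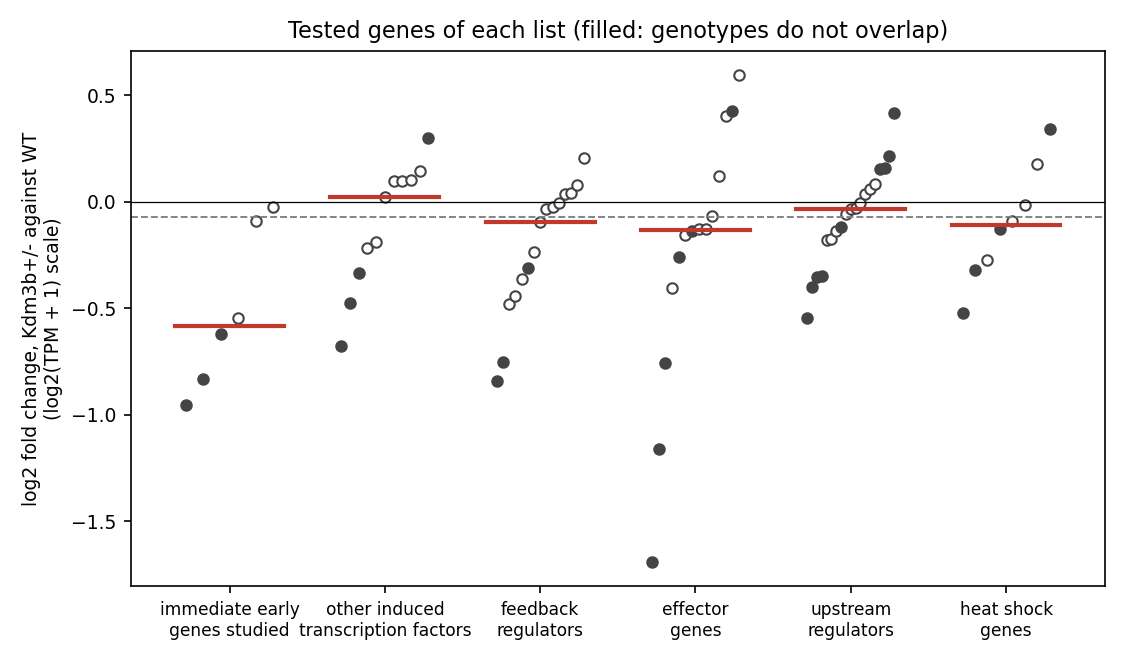
Log2 fold change of the tested genes of each list, *Kdm3b*+/- over WT, on the log2(TPM + 1) scale, with 1 point per gene, filled where the genotypes do not overlap, a red line for the median of the list and a dashed line for the median of all tested genes. The 6 immediate early genes have a median of -0.58, the 5 other lists lie between -0.13 and 0.02, and all tested genes have a median of -0.07.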

How the data were processed

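Bulk RNA of GCE tissue was sequenced from 2 WT and 2 *Kdm3b*+/- mice. After trimming of low-quality bases, the authors used STAR for alignment and StringTie for abundance, whose versions, genome build and annotation are not given in the sources used here. In the deposited tables TPM is corrected for gene length and sums to 1000000 per library, deposited FPKM is corrected for gene length and mapped fragments, and deposited coverage is the mean read depth per base, a signal without normalization. RefSeq in GRCm38.p6 gave the same chromosome for 99.6% of the identifiers and a start less than 1 kb away for 90.5%, so the coordinates printed for genes are the deposited ones. Symbols were matched for 24462 of 24532 identifiers, and entries that shared an identifier (220 identifiers, none of them an immediate early gene studied here) were summed. Aligned bases follow from coverage divided by FPKM, a ratio that 66.4% to 67.5% of entries shared.

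TPM was transformed to log2(TPM + 1), with a pseudocount of 1, so fold changes of genes with low levels are understated. A linear model of genotype alone was fitted in limma version 3.58.1 (trended eBayes, R version 4.3.3) to the 13652 genes whose mean TPM reached 1, over which Benjamini-Hochberg adjustment was made. The authors used DESeq2 on estimated counts, which was not repeated because TPM is not a count. With 2 mice per genotype, limma borrows its estimate of spread in part from all genes, and p-values rest on the spread between mice of a genotype. How far they hold beyond these 4 mice was not tested. The script was tested on simulated data. Promoter windows came from RefSeq, and positions of GENCODE transcripts from its annotation of the same assembly.

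The genes and lists were chosen with earlier results of these data known. The genes named are the 10, *Kdm3b*, and, from the lists of other induced transcription factors, feedback regulators, effectors and upstream regulators, each DEX gene and the 3 largest fold changes (from the heat shock list the 2 largest), unless said otherwise. Lists of cell type markers are given by counts and summed TPM. No likeness of patterns was computed over 4 libraries. The level of 1 marker gene, and the sum of the list that holds it, is not reported here. The alternatives were a pseudocount of 0.1, FPKM, no filter, a minimum mean of 5 TPM, scaling by median ratio, quantile normalization, the highest entry per identifier, the adjusted p alone, eBayes without trend, robust eBayes (statmod version 1.5.0), the replicate number as a block, and each library left out. Figures were drawn with Matplotlib version 3.10.9.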

Additional observations from a re-analysis of the deposited data

How the results depend on the processing

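The log2 fold changes of *Egr1*, *Fos*, *Junb* and *Nr4a1* were negative under each of these alternatives. They ran from -1.28 to -0.63 for *Egr1*, from -1.39 to -0.28 for *Fos*, from -0.89 to -0.35 for *Junb* and from -1.07 to -0.02 for *Nr4a1*. *Arc* turned positive with FPKM (0.0399), median-ratio scaling (0.0489) and quantile normalization (0.0969), and ran from -0.20 to 0.16 with a library left out, and *Egr4* turned positive with quantile normalization (0.0347) and ran from -0.52 to 0.35. The number of DEX genes among those tested of the 10 was 0 to 1 with a library left out and 1 with the replicate block, where *Egr1* had an adjusted p of 0.00492 in limma. Among the activity-induced lists, where it was 1, it was 0 with FPKM, without the filter and with eBayes without trend, 3 with the replicate block, and 0 to 3 with a library left out. The replicate numbers in the labels mark different animals, and the correlation of deviations between same-numbered mice was 0.121. The number of the 6 tested genes with a lower level and no overlap was 3 to 5 with a library left out. It was 2 with median-ratio scaling and with quantile normalization, where *Fos* overlapped. Of all tested genes, 51.8% and 42.6% had this pattern without WT mouse 1 and WT mouse 2. The share was 40.4% and 48.2% without *Kdm3b*+/- mouse 1 and mouse 2. With median-ratio scaling and quantile normalization it was 25.3% and 23.8%. Each count is to be read against the share of its own setting. The median log2 fold change over the 6 tested genes, -0.58, was -0.98 to -0.15 with a library left out, and without the filter, where all 10 genes enter, it was -0.12, and the log2 ratio of the summed level, -0.69, was -0.99 to -0.31. Over all genes, the 63 DEX genes became 600 with the replicate block, 2 without the filter, 38 with FPKM, 37 with eBayes without trend, and 21, 28, 121 and 188 without WT mouse 1, WT mouse 2, *Kdm3b*+/- mouse 1 and *Kdm3b*+/- mouse 2. The cause of these changes was not tested. With 2 mice per genotype the precision is limited by the number of mice, and the 4 genes below 1 TPM could not be compared.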
